A study of Mus musculus with 6 samples.

Results

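Il18 and the genes around its maturation were followed in mouse ileum as a list of 10 genes. The list held the cytokine Il18, its soluble inhibitor Il18bp, its receptor chain Il18r1, the caspases Casp1 and Casp4, the adaptor Pycard and the sensors Naip1, Naip2, Naip5 and Naip6. Every probe set that the platform annotation gave to exactly 1 of these genes was taken, which gave 10 probe sets for 9 genes, of 22626 probe sets on the array without controls. The array holds 12393 genes with a probe set of their own. Naip1 had 0 probe sets of its own and was not analysed here. Of the 10 probe sets, 9, for 8 genes, passed a filter on low signal and were tested, and the Il18r1 probe set did not pass.

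The 6 Affymetrix arrays formed 3 groups of 2. BDL_GW4064 mice underwent bile duct ligation, which keeps bile out of the gut, and received GW4064 by gavage at 100 mg/kg/day, starting 2 days ahead of the operation and going on for 5 days afterwards. GW4064 is a synthetic compound that switches on FXR, the nuclear receptor for bile acids. BDL_Vehicle mice had the same ligation and the Tween80 and methylcellulose vehicle, and Sham_Vehicle mice had the incision and handling of the duct without ligation, and vehicle. Every group consisted of wild-type male mice of mixed strain (C57BL/6:129Sv), 8 to 10 months old and fed chow. Sham-operated mice given GW4064 were not analysed here. The labels do not state that replicate arrays stem from different mice. The p-values therefore reflect only how far these samples scatter, and that scatter may be technical.

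Inflammasomes are cytosolic complexes that turn on inflammatory caspases when microbial products or cell damage are sensed. NAIP proteins bind bacterial flagellin or parts of the type III secretion apparatus and recruit NLRC4, the adaptor ASC (gene Pycard) links sensors to caspase-1, and caspase-1 cuts the inactive IL-18 precursor into the secreted cytokine. In the gut the IL-18 precursor is held ready in epithelial cells, and the released cytokine acts on epithelium and lymphocytes. Array signals measure the mRNA and say nothing of cleavage.

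Signals are MAS5 units on a linear scale, and all 6 arrays had the same trimmed mean signal of 200.1 (2% left out at either end). A signal of 37.1, the lower bound of the filter, is used as the floor below which a probe set was read as dim. Fgf15, an ileal target gene of FXR, rose with GW4064 and read 972.1 and 809.6 in BDL_GW4064 arrays, against 5.5 and 3.4 in BDL_Vehicle arrays (limma adjusted p = 7.93e-05). All 7 ileal enterocyte markers examined, such as Fabp6, lay above the floor in all 6 arrays. BDL_GW4064 replicate 2 stood apart from the other arrays in smooth muscle: the summed signal of 8 smooth muscle markers was 10296 there, 906.6 in BDL_GW4064 replicate 1, 533.8 and 747.5 in BDL_Vehicle arrays and 778.1 and 905 in Sham_Vehicle arrays. A control probe set at the 5' end of 18S rRNA read 8.6 to 13.3 in 3 arrays, both of BDL_GW4064 and the second of BDL_Vehicle. It read 67.3 to 88.7 in the remaining 3, the first of BDL_Vehicle and both of Sham_Vehicle. This split, called the array set here, is defined from that control alone, and the labels name no batch for it. It separates BDL_GW4064 from Sham_Vehicle entirely, so set and group cannot be told apart within those 2 groups. In whole tissue, fewer cells of a type and less RNA per cell cannot be told apart either.

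Il18 had its highest signals with GW4064, and among the tested members it alone had both BDL_GW4064 arrays above both BDL_Vehicle arrays (1 of 9, against 17.4% of all tested probe sets). The Il18 probe set read 729.1 and 1154.9 in BDL_GW4064 arrays, 464.9 and 378.7 in BDL_Vehicle arrays and 303.6 and 325.4 in Sham_Vehicle arrays. The groups did not overlap and stood in the order BDL_GW4064, BDL_Vehicle, Sham_Vehicle, an order found in 309 of 13575 tested probe sets, or 2.28%. The means were 942 ± 301, 421.8 ± 61 and 314.5 ± 15.4 (SD, n = 2 arrays each) in that order. The spread was widest in BDL_GW4064, where the higher array was replicate 2, the one with the high smooth muscle signal.

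**Figure D1:**
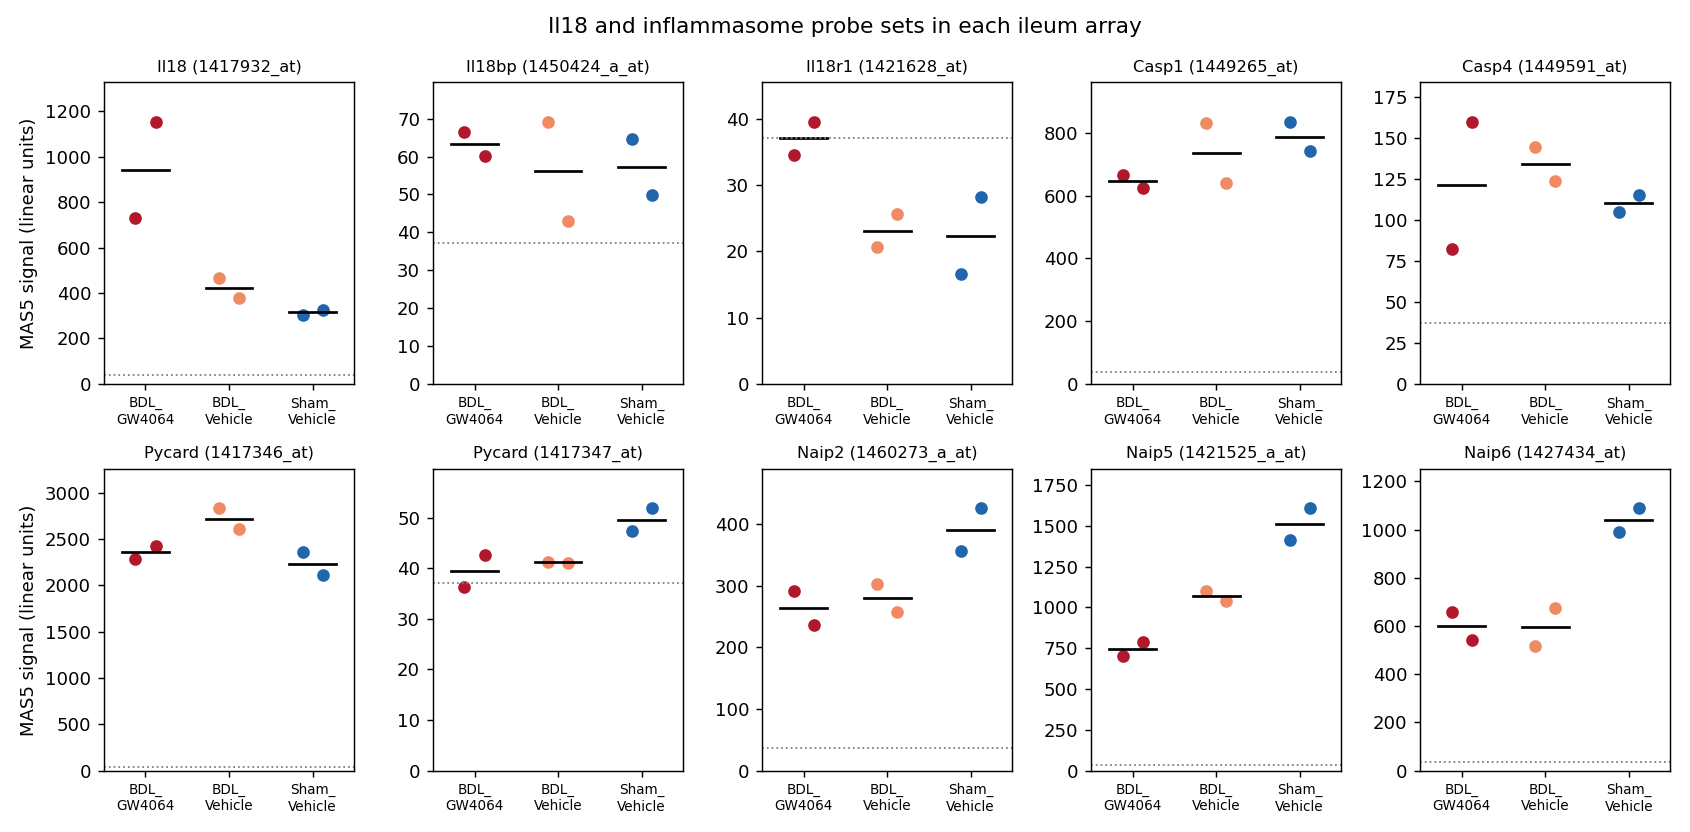
MAS5 signal (linear units, vertical axis) of the 10 member probe sets in each array, by group on the horizontal axis. Points are arrays, black bars are the means of 2 arrays, and the dotted line is the floor of 37.1. Il18 is highest in BDL_GW4064 (729.1 and 1154.9), while Naip2, Naip5 and Naip6 are highest in Sham_Vehicle.

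Between BDL_GW4064 and BDL_Vehicle the Il18 log2 fold change was 1.12 ± 0.22 (SE), or 2.18-fold on the log2(signal + 4) scale, and it did not pass the threshold of 0.05 (limma adjusted p = 0.26). It ranked 60 of 13575 by p-value and 164 by upward change. Between BDL_GW4064 and Sham_Vehicle the log2 fold change was 1.53 ± 0.22 (limma adjusted p = 0.105), and between BDL_Vehicle and Sham_Vehicle it was 0.41 ± 0.22 (limma adjusted p = 0.751). The 3 comparisons share arrays in pairs, so these values are not independent of each other. Without BDL_GW4064 replicate 2 the Il18 value against BDL_Vehicle was 0.79 (limma adjusted p = 0.524), and without BDL_GW4064 replicate 1 it was 1.45 (limma adjusted p = 0.0525). Against Sham_Vehicle the call depended on 1 array: without BDL_GW4064 replicate 1 the value was 1.86 and passed (limma adjusted p = 0.0317), and without replicate 2 it was 1.20 (limma adjusted p = 0.234). Fitting the array set, which rests the GW4064 value on BDL_Vehicle replicate 2 and the ligation value on BDL_Vehicle replicate 1, gave Il18 differences of 1.27 with GW4064 and 0.56 with ligation, with limma adjusted p of 0.803 and 1. The published study followed up Il18 as a gene raised by GW4064, so its direction on these arrays is no independent evidence.

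For Il18 the 250 bases before the RefSeq start site (GRCm38.p6, chr9:50554450-50554699, plus strand) are shown because it is the member with the widest spread between groups. Both strands of the promoter windows, 250 bases before to 50 after each start site, were searched for AGGTCA (the half-site of nuclear receptors), for the FXR-type element IR-1 (AGGTCA and its reverse complement 1 base apart), for TTTC followed after any 2 bases by TTTC (an interferon response core), for TTCNNNGAA (a STAT site) and for GGGACTTTC (an NF-kappa-B core). The Il18 window held 0 of them, so the sequence carries no capitals.
Il18: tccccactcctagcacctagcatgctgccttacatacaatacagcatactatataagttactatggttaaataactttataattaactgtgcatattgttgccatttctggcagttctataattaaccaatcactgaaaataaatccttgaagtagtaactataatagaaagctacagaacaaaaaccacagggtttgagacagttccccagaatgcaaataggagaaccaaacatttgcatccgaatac

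Over the 13 windows of the 10 members, AGGTCA, IR-1, the interferon core and the NF-kappa-B core occurred in 0, and the STAT site in 1, a window of Il18r1. Among all 32851 windows the shares were 16.3% for AGGTCA, 0.00913% for IR-1, 3.44% for the interferon core, 8.30% for the STAT site and 0.353% for the NF-kappa-B core. AGGTCA lies within IR-1, so those 2 searches overlap. A missing match says only that these letters are not in these windows.

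The genes whose pattern over the 6 arrays was closest to Il18 were Gbp2, Igfbp4, Ecm1, Serping1, Pcolce, C1qa, Anxa6 and Hspg2. Closeness was the mean absolute difference between log2 signals, each centred on its own mean over the arrays, and it was 0.14 for Gbp2, an interferon-induced GTPase, and 0.19 to 0.21 for the other 7, against a median of 0.60 over 12490 probe sets. The Gbp2 probe set nearest to Il18 read 70.4 and 93 in BDL_GW4064 arrays, 48.1 and 40.6 in BDL_Vehicle arrays and 32.6 and 33 in Sham_Vehicle arrays. Both sham readings lie below the floor, and Pcolce and Hspg2 also had arrays below it. A brighter Gbp2 probe set read 64.1 and 89 in BDL_GW4064 arrays, 44.5 and 49.6 in BDL_Vehicle arrays and 42.2 and 31.5 in Sham_Vehicle arrays. Several of the others encode matrix or connective tissue proteins, such as Ecm1, Pcolce (a procollagen processing enhancer) and Hspg2 (perlecan), and C1qa is a complement gene of macrophages.

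Markers of other cell types stood high in the same arrays. Fibroblast markers, 9 measured, summed to 3532.5 and 4442.8 in BDL_GW4064 arrays, 1158.4 and 1539.6 in BDL_Vehicle arrays and 1177 and 1883 in Sham_Vehicle arrays. Macrophage and dendritic cell markers, 13 measured, summed to 2425.8 and 2341.7 in BDL_GW4064 arrays, 1817.5 and 1478.6 in BDL_Vehicle arrays and 1513.9 and 1421.9 in Sham_Vehicle arrays. In both lists the BDL_GW4064 arrays were above all others, and endothelial markers showed the same (512.2 and 495 against at most 343.9 elsewhere). With GW4064 in ligated mice 10 of 12 tested macrophage and dendritic cell markers had higher and 2 had lower values (0 passed). Of the tested fibroblast markers 9 of 9 were higher, and of the endothelial 4 of 4. The 13 epithelial markers summed to 42778 and 38733 in BDL_GW4064 arrays, 41151 and 43013 in BDL_Vehicle arrays and 43133 and 40053 in Sham_Vehicle arrays. These sums, in which bright markers weigh most, overlapped between the groups. Taken singly, 4 of the 13 had higher and 9 had lower values with GW4064 in ligated mice (median log2 fold change -0.03, 0 passed). Cdx2, Vil1 and Cdh1 were lower in both BDL_GW4064 arrays than in all other arrays. All 7 neutrophil markers, the defining S100a8 and S100a9 among them, were below the floor in all 6 arrays. The part of these cell types in the Il18 values was not tested.

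**Figure D2:**
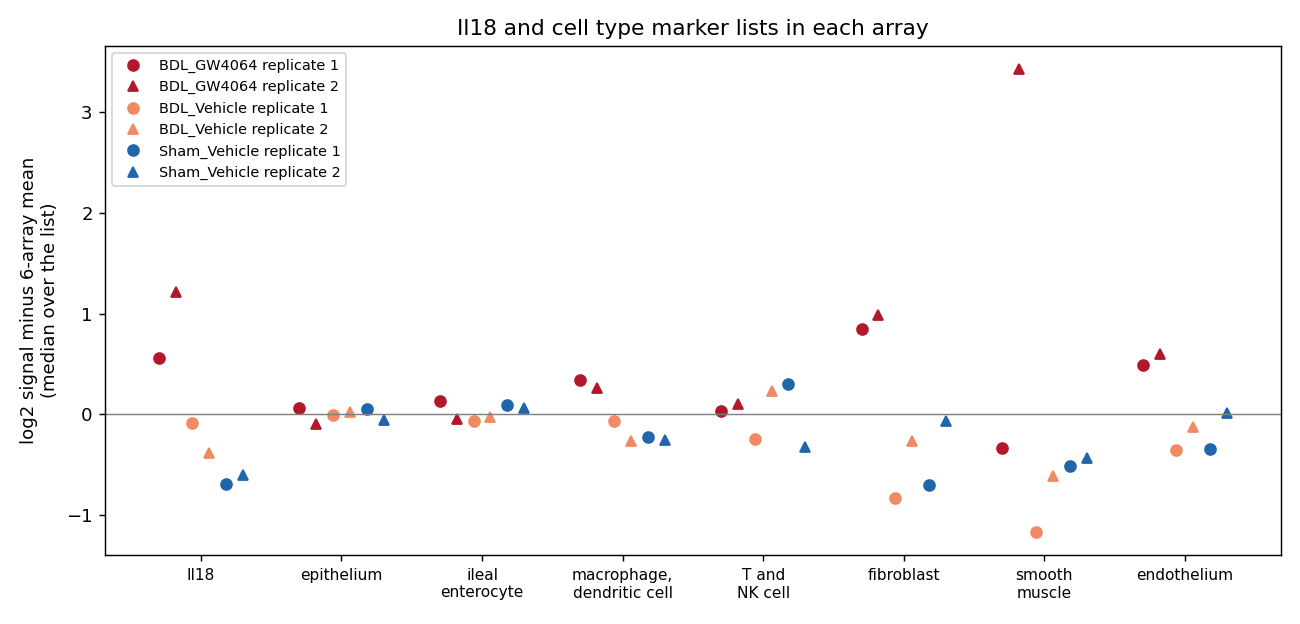
Log2 signal minus the mean of the 6 arrays (vertical axis) for Il18 and, for 7 marker lists, the median over the list's genes, with 1 point for each array coloured by group. Il18, fibroblast, macrophage and endothelial values are highest in both BDL_GW4064 arrays, epithelial values lie near 0 in all arrays, and smooth muscle stands out in BDL_GW4064 replicate 2 (3.43).

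Il18bp, which encodes the secreted protein that binds IL-18 and blocks it, read 66.5 and 60.1 in BDL_GW4064 arrays, 69.2 and 43.1 in BDL_Vehicle arrays and 64.6 and 49.9 in Sham_Vehicle arrays. These signals were close to the floor and overlapped in all 3 comparisons, with log2 fold changes of 0.20 ± 0.28 (SE) for BDL_GW4064 against BDL_Vehicle and -0.05 ± 0.28 for BDL_Vehicle against Sham_Vehicle. Il18r1, the ligand-binding receptor chain, was below the floor in 5 of 6 arrays. It read 34.6 and 39.6 in BDL_GW4064 arrays, 20.6 and 25.7 in BDL_Vehicle arrays and 16.6 and 28.2 in Sham_Vehicle arrays. Both GW4064 arrays were the highest, but at this brightness no fold is given. Il18rap, the signalling partner of that chain, read 8.9 to 16.6 and lay below the floor in all 6 arrays. Ifng, the cytokine that IL-18 induces in lymphocytes, read 0.8 to 13 and was below the floor in all 6 as well.

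Casp1, the protease that matures IL-18, passed in no comparison. It read 666 and 625.6 in BDL_GW4064 arrays, 832.7 and 641.4 in BDL_Vehicle arrays and 836.5 and 741.8 in Sham_Vehicle arrays. Both BDL_GW4064 arrays were below both Sham_Vehicle arrays, as for 26.3% of all tested probe sets. The log2 fold change was -0.29 ± 0.16 (SE, limma adjusted p = 0.413), and the BDL_Vehicle arrays overlapped both other groups. When the array set entered the fit, the sign of the Casp1 value turned in all 3 comparisons (0.01 for BDL_GW4064 against BDL_Vehicle, 0.08 for BDL_Vehicle against Sham_Vehicle and 0.09 for BDL_GW4064 against Sham_Vehicle). The first value rests on BDL_Vehicle replicate 2, the second on BDL_Vehicle replicate 1, and the third is their sum. These values therefore do not separate the array set from the group. Casp4, known in mice as caspase-11 and able to bind bacterial lipopolysaccharide in the cytosol, is the gene next to Casp1 on chromosome 9. It read 82.3 and 159.9 in BDL_GW4064 arrays, which lay on either side of the BDL_Vehicle (144.6 and 124) and Sham_Vehicle (105 and 115) arrays. Both BDL_Vehicle arrays were above both Sham_Vehicle arrays, as for 18.2% of all tested probe sets. Its log2 fold change with GW4064 was -0.21 ± 0.29 (SE) and became 0.25 without BDL_GW4064 replicate 1.

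The brighter Pycard probe set, for the adaptor ASC, was highest after ligation with vehicle. It read 2286.4 and 2425.7 in BDL_GW4064 arrays, 2828.7 and 2607.3 in BDL_Vehicle arrays and 2361.5 and 2105.3 in Sham_Vehicle arrays, so BDL_Vehicle lay above both other groups without overlap. Its log2 fold change was -0.21 ± 0.11 (SE, limma adjusted p = 0.771) for BDL_GW4064 against BDL_Vehicle. It was 0.28 ± 0.11 (limma adjusted p = 0.751) for BDL_Vehicle against Sham_Vehicle. Of all tested probe sets, 18.1% had BDL_GW4064 below BDL_Vehicle and 18.2% had BDL_Vehicle above Sham_Vehicle without overlap. The dimmer Pycard probe set, at 36.3 to 51.8, had log2 fold changes of -0.06 ± 0.25 (SE) for BDL_GW4064 against BDL_Vehicle, -0.25 ± 0.25 for BDL_Vehicle against Sham_Vehicle and -0.31 ± 0.25 for BDL_GW4064 against Sham_Vehicle. Both Pycard probe sets had lower values in BDL_GW4064 than in BDL_Vehicle, and they differed in sign in both comparisons with Sham_Vehicle.

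The Naip sensors had their highest signals in sham mice. Naip5, which in mice senses flagellin, read 704.5 and 790.6 in BDL_GW4064 arrays, 1098.8 and 1036.7 in BDL_Vehicle arrays and 1414.1 and 1606.2 in Sham_Vehicle arrays. The 3 groups did not overlap, with BDL_GW4064 lowest, a pattern found in 405 of 13575 tested probe sets, or 2.98%. The means were 747.6 ± 60.9, 1068 ± 43.9 and 1510 ± 136 (SD, n = 2 arrays each) in that order. The log2 fold change of Naip5 was -0.51 ± 0.13 (SE, limma adjusted p = 0.349) for BDL_GW4064 against BDL_Vehicle, -0.50 ± 0.13 (limma adjusted p = 0.68) for BDL_Vehicle against Sham_Vehicle and -1.01 ± 0.13 (limma adjusted p = 0.0791) for BDL_GW4064 against Sham_Vehicle. The last of these, a signal 2.01-fold lower, ranked 10 of 13575 by p-value and was the smallest adjusted p of any member. A fit that includes the array set gave -0.93 (limma adjusted p = 1). That value is the sum of -0.47 and -0.45, each resting on 1 BDL_Vehicle array, so it does not separate the array set from the group.

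Naip6, the other flagellin sensor, had lower signals in both ligated groups. It read 659 and 543.3 in BDL_GW4064 arrays, 517.5 and 674.1 in BDL_Vehicle arrays and 988.3 and 1087.8 in Sham_Vehicle arrays. The ligated groups overlapped each other, and all 4 ligated arrays lay below both sham arrays. Without overlap, BDL_Vehicle lay below Sham_Vehicle for 18.7% of all tested probe sets, and BDL_GW4064 did for 26.3%. The log2 fold change was -0.81 ± 0.17 (SE, limma adjusted p = 0.475) for BDL_Vehicle against Sham_Vehicle, rank 47 of 13575 by p-value. It was -0.79 ± 0.17 (limma adjusted p = 0.176) for BDL_GW4064 against Sham_Vehicle and 0.02 ± 0.17 for BDL_GW4064 against BDL_Vehicle. Naip2, which binds the inner rod of type III secretion systems, showed the same arrangement at lower signal: 291.5 and 236.8 in BDL_GW4064 arrays, 303 and 257.4 in BDL_Vehicle arrays and 355.8 and 425.4 in Sham_Vehicle arrays. Its log2 fold change was -0.47 ± 0.18 (SE, limma adjusted p = 0.751) after ligation and -0.09 ± 0.18 with GW4064 in ligated mice. Sham_Vehicle replicate 2 had the highest signal of all 6 arrays for each of the 3 Naip probe sets. Its actin 3' to 5' signal ratio, a sign of RNA quality, was 1.73, against 1.09 to 1.22 in the other arrays. Without that array the log2 fold change of BDL_GW4064 against Sham_Vehicle was -0.43 for Naip2, -0.92 for Naip5 and -0.72 for Naip6, and that of BDL_Vehicle against Sham_Vehicle was -0.34 for Naip2, -0.40 for Naip5 and -0.74 for Naip6. The limma adjusted p was 0.264 for Naip5 with BDL_GW4064 and at least 0.542 for the others. The epithelial marker sums overlapped between the groups. Of the 13 epithelial markers, 4 had higher and 9 had lower values with GW4064 in ligated mice (median log2 fold change -0.03, 0 passed). Cdx2, Vil1 and Cdh1, picked after their values were seen, were lowest in the BDL_GW4064 arrays. The part of RNA quality and cell composition in the Naip values was not tested. Whether Naip5 and Naip6 differ in their GW4064 value was not tested.

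**Figure D3:**
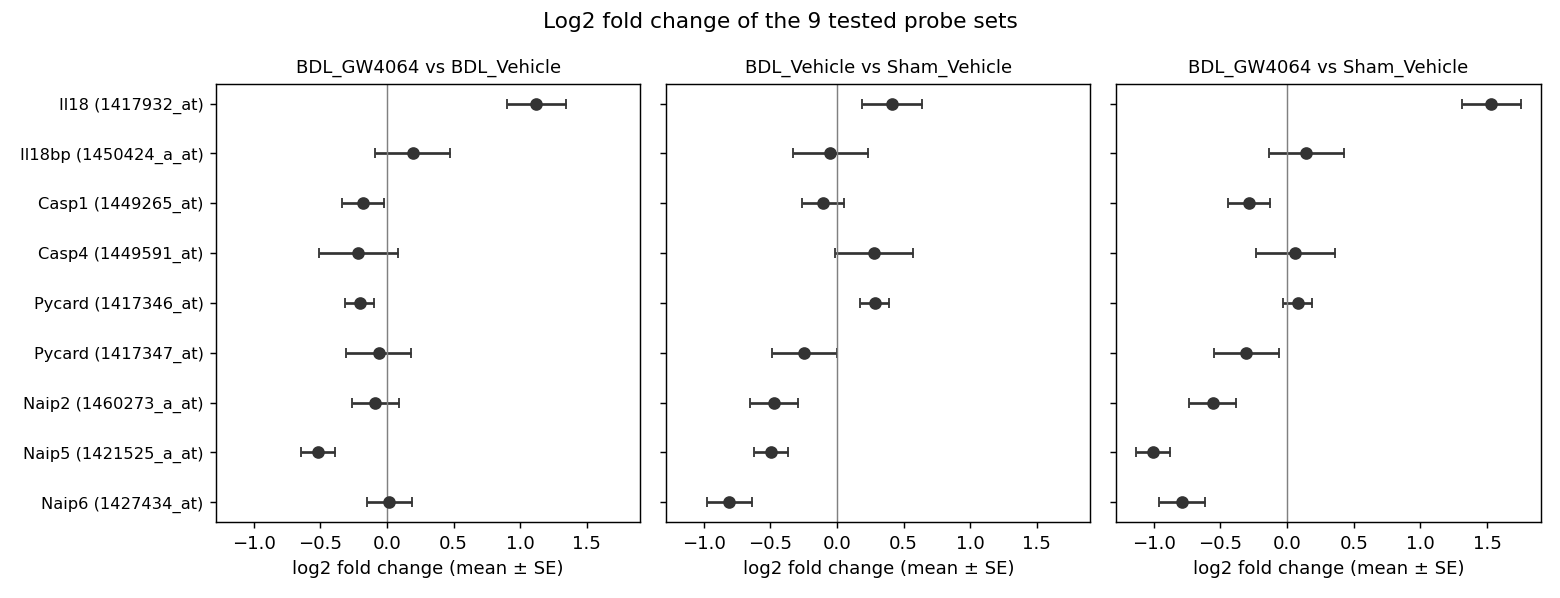
Log2 fold change (horizontal axis, points, with SE bars from limma) of the 9 tested probe sets in the 3 comparisons, 1 panel each. Il18 lies right of 0 in each panel, Naip5 left of 0 in each, and Naip2 and Naip6 left of 0 against Sham_Vehicle and near 0 between the ligated groups.

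The Naip genes are close copies that lie side by side on chromosome 13 (Naip2, Naip5, Naip6), and the counting of a probe set to 1 copy rests on the annotation. Signal from a near-identical copy cannot be told apart here, so the 3 Naip probe sets are uncertain as separate measurements. The start regions of Naip2 and Naip5 also share sequence, shown because it is the longest shared stretch among the Naip windows. Naip6, also highest in sham mice, shared a stretch of at most 30 columns with either. Any bearing of shared sequence on the signals was not tested. The best local alignment of the Naip2 and Naip5 windows spanned 134 columns with 91.8% identity. The part of it before the Naip2 start site is printed, 85 bases each on the minus strand of GRCm38.p6 (Naip2 at chr13:100202123-100202207 and Naip5 at chr13:100247344-100247428), and capitals mark the 8 bases that differ between them.
Naip2: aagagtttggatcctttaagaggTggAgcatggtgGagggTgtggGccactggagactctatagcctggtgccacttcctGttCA
Naip5: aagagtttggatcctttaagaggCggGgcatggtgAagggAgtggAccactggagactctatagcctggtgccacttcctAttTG

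Over the whole list, 0 of 9 member probe sets passed the adjusted threshold in any comparison. For BDL_GW4064 against BDL_Vehicle, 0.0516% of all tested probe sets passed, and 2 of 9 members (Il18 upward, Naip5 downward) had an unadjusted limma p under 0.05, against 7.48% of all. Both BDL_GW4064 arrays were above both BDL_Vehicle arrays for 1 of 9 members (17.4% of all tested) and below them for 2 of 9 (18.1%). For BDL_Vehicle against Sham_Vehicle, 0.0295% of all passed, and 4 of 9 members (the brighter Pycard probe set upward, Naip2, Naip5 and Naip6 downward) had an unadjusted p under 0.05, against 6.37% of all. There the BDL_Vehicle arrays lay above both sham arrays for 3 of 9 members (18.2% of all) and below them for 4 of 9 (18.7%). For BDL_GW4064 against Sham_Vehicle, 0.0368% of all passed, and 4 of 9 members (Il18 upward, Naip2, Naip5 and Naip6 downward) had an unadjusted p under 0.05, against 16% of all. The BDL_GW4064 arrays lay above both sham arrays for 1 of 9 members (23.8% of all) and below them for 5 of 9 (26.3%). Against Sham_Vehicle the 3 Naip probe sets, which may share signal, are among the lower members in both comparisons.

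Other inflammasome sensors and partners were measured less completely. Of 23 listed genes 9 were tested. With GW4064 in ligated mice 8 of 9 had higher values, against 50.4% of all 7919 genes tested, and 0 passed. The median log2 fold change was 0.29, against 0.00 over all genes. The 8 values ranged from 0.006 ± 0.26 to 1.01 ± 0.22 (SE), and related Gbp genes are among them. Most of the 8 are partners rather than sensors. Gbp3, an interferon-induced GTPase, read 115.2 and 95.6 in BDL_GW4064 arrays, against 55.4 and 45.1 in BDL_Vehicle arrays (log2 fold change 1.01 ± 0.22, SE, limma adjusted p = 0.285). Nek7, the kinase that licenses NLRP3, read 157.6 and 207.5 in BDL_GW4064 arrays, against 109.2 and 98.2 in BDL_Vehicle arrays (0.78 ± 0.21, limma adjusted p = 0.394). Neither pair of groups overlapped, and 17.4% of all tested probe sets had BDL_GW4064 above BDL_Vehicle in this way. The epithelial sensor Nlrp6 was the 1 lower gene, with 582.5 and 542.7 in BDL_GW4064 arrays, against 675 and 723.1 in BDL_Vehicle arrays (-0.31 ± 0.16, limma adjusted p = 0.761). After ligation alone 3 of these 9 genes had higher values, against 47.9% of all genes, and 0 passed. The median was -0.02, against -0.01 over all genes. Nlrp3, a sensor of cell damage, and Aim2, a sensor of cytosolic DNA, lay below the floor in all 6 arrays at 16.1 to 36.6 and 2 to 13.9. Nlrc4 was not analysed here.

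Genes of pyroptosis and other caspases had values in both directions. Of 14 listed, 8 were tested and 0 passed in any comparison, and with GW4064 5 of 8 had higher values (median 0.08). Casp12, a caspase of the endoplasmic reticulum, had the smallest p of the list with GW4064 and read 49.7 and 72.2 in BDL_GW4064 arrays, 40.2 and 30.8 in BDL_Vehicle arrays and 54.9 and 28.9 in Sham_Vehicle arrays. The BDL_GW4064 arrays were above both BDL_Vehicle arrays (log2 fold change 0.71 ± 0.35, SE, limma adjusted p = 0.75), with 2 of the 6 arrays below the floor. Casp8, an apoptotic caspase that can also cut interleukin precursors, read 1212.8 and 1078.1 in BDL_GW4064 arrays, 1348 and 1177.1 in BDL_Vehicle arrays and 1183.5 and 1115 in Sham_Vehicle arrays, with groups that overlapped throughout. Casp9, the initiator caspase of the mitochondrial apoptosis pathway, read 131.9 and 129.8 in BDL_GW4064 arrays, 102.1 and 106.6 in BDL_Vehicle arrays and 131.5 and 137.4 in Sham_Vehicle arrays. Ligation with vehicle was the low group without overlap, at -0.35 ± 0.16 against Sham_Vehicle (log2 fold change, SE, limma adjusted p = 0.751). Of all tested probe sets, 18.7% had BDL_Vehicle below Sham_Vehicle and 17.4% had BDL_GW4064 above BDL_Vehicle without overlap. Gsdmd, the pore former of pyroptosis, was not analysed here.

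Relatives of Il18 in the IL-1 family were mostly dim. Of 16 listed IL-1 family genes and receptors, 4 were tested and 0 passed. Il1b, also matured by caspase-1, read 44.2 and 35.2 in BDL_GW4064 arrays, 48.9 and 33.2 in BDL_Vehicle arrays and 70.5 and 51.7 in Sham_Vehicle arrays. Both ligated groups lay below sham (18.7% of all tested probe sets for BDL_Vehicle, 26.3% for BDL_GW4064). The log2 fold change was -0.54 ± 0.30 (SE, limma adjusted p = 0.752) for BDL_Vehicle against Sham_Vehicle, close to the floor. Il1f6, an epithelial cytokine also called IL-36 alpha, read 35.3 and 37 in BDL_GW4064 arrays, 55.5 and 45.1 in BDL_Vehicle arrays and 64.3 and 57.7 in Sham_Vehicle arrays, and both BDL_GW4064 arrays were below the floor, so no fold is given. Il1rap, the receptor subunit shared by IL-1 and IL-33, read 61.8 and 60.1 in BDL_GW4064 arrays, 38.2 and 38.1 in BDL_Vehicle arrays and 65.6 and 37.5 in Sham_Vehicle arrays, where the sham arrays spanned both ligated groups. All 4 tested genes had lower values after ligation, with a median of -0.38, and with GW4064 1 of 4 was higher (median -0.05).

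Downstream of the receptor, 12 of 17 listed signalling genes were tested, and 5 of 12 had higher values with GW4064 (median -0.01, 0 passed). Ikbkb, a kinase of the NF-kappa-B pathway, read 496.6 and 524 in BDL_GW4064 arrays, against 366.2 and 411.6 in BDL_Vehicle arrays (log2 fold change 0.39 ± 0.14, SE, limma adjusted p = 0.565). Myd88, the adaptor that the IL-18 receptor uses, read 369.2 and 287.5 in BDL_GW4064 arrays, against 270.8 and 260.8 in BDL_Vehicle arrays (0.29 ± 0.17, limma adjusted p = 0.795). Of the 16 genes of the interferon gamma axis 6 were tested, and 4 of 6 had higher values with GW4064 (median 0.01, 0 passed). Jak1, a kinase of interferon receptors, read 687.6 and 628.7 in BDL_GW4064 arrays, against 529.6 and 591.7 in BDL_Vehicle arrays (0.23 ± 0.13, limma adjusted p = 0.795). Irf1, an interferon-induced transcription factor, differed by 0.10 ± 0.12 (SE).

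The NAIP proteins carry the repeat of the inhibitor of apoptosis family, and 5 of 6 listed relatives were tested. Xiap, a direct caspase inhibitor, read 673.7 and 597.8 in BDL_GW4064 arrays, against 810.7 and 820.1 in BDL_Vehicle arrays (log2 fold change -0.36 ± 0.13, SE, limma adjusted p = 0.544). After ligation 3 of these 5 genes had higher and 2 had lower values (median 0.01), with Birc2 at -0.33 ± 0.15 (limma adjusted p = 0.751), and 0 passed in any comparison.

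**Figure D4:**
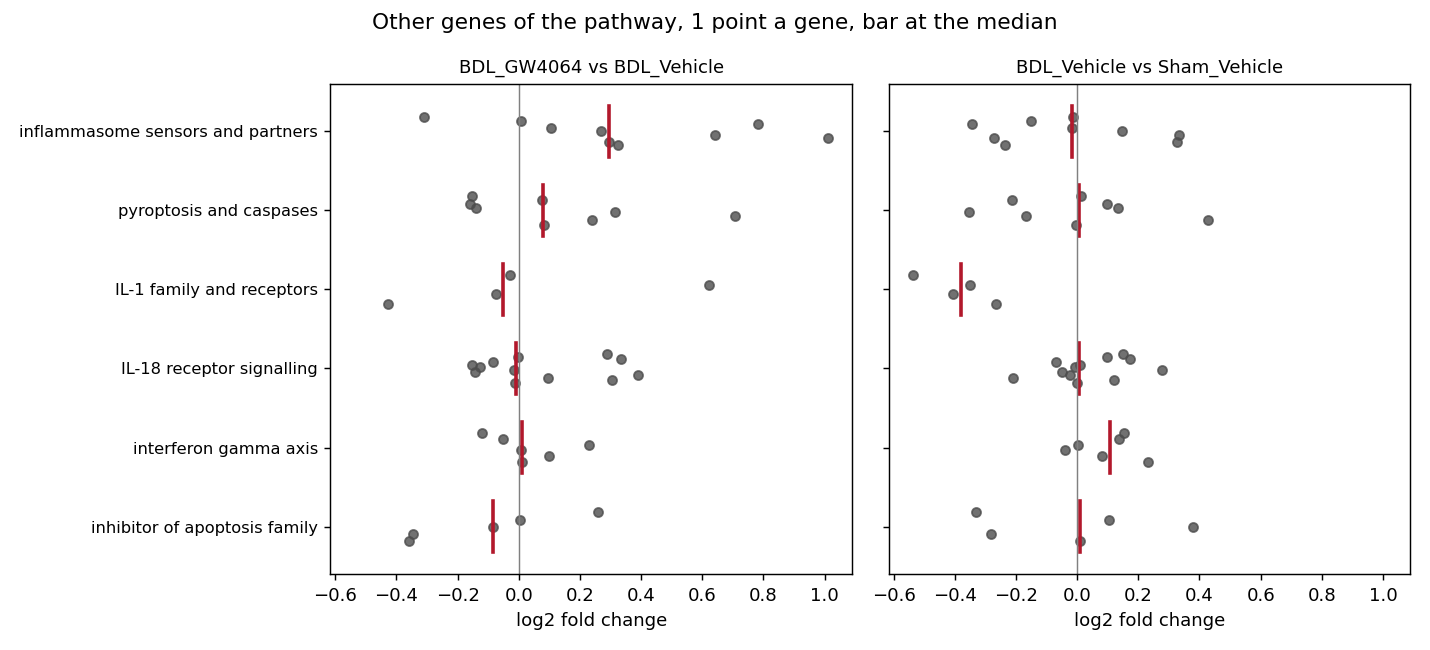
Log2 fold change (horizontal axis) of the tested genes of 6 pathway lists, 1 point a gene and a red bar at the list's median, for BDL_GW4064 against BDL_Vehicle and for BDL_Vehicle against Sham_Vehicle. Sensors and partners have 8 of 9 points right of 0 with GW4064 (median 0.29), and the 4 IL-1 family genes lie left of 0 after ligation (median -0.38).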

How the data were processed

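Mouse ileum RNA (5 µg a sample, per the labels' protocols) was measured on 6 arrays. The deposited values were intensity values on a linear scale, named MAS5 signals in the submitters' processing notes. The MAS5 version, detection calls and the batches of the labelling reactions are not given in the sources used here. All columns belonged to a sample. For arrays, 2 per group limit the precision. A pseudocount of 4, the rounded 10th percentile of the signals, was added before taking log2, which understates changes of dim genes. The 64 controls and the lowest 40% by mean log2 signal were left out, which left 13575 probe sets. limma (version 3.58.1, R 4.3.3) was fitted with 1 mean per group, all 6 arrays and a variance trend, and p-values were adjusted over all 13575 by the Benjamini-Hochberg method at 0.05. The procedure was tested on simulated data. A pathway gene was represented by its brightest probe set.

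By rule the text names all member probe sets, up to 4 genes of smallest p in a comparison from each pathway list, Fgf15 as a check of the drug, and the 8 genes nearest to Il18. Nlrp3, Aim2, Il18rap, Ifng, Cdx2, Vil1 and Cdh1 fall outside this rule and were picked after their values were seen. Fabp6, S100a8 and S100a9, named as examples from marker lists, fall outside it too. The members and lists were chosen with earlier results of these data known. Symbols followed the platform annotation, and all 10 matched a RefSeq table (GRCm38.p6) by gene identifier. RefSeq promoter windows of that build were found for all 10 genes. The array files name no build, so coordinates are given only for stretches of RefSeq promoter sequence. Alternatives were quantile normalization, median centring, pseudocounts of 1 and 16, no filter, a filter at 60%, no trend, a robust prior, only the 4 arrays compared, the replicate number as a block, the array set as a term, and leaving out each array.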

Additional observations from a re-analysis of the deposited data

How the results depend on the processing

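The count of member probe sets that passed was 0 under all alternatives run for BDL_GW4064 against BDL_Vehicle and for BDL_Vehicle against Sham_Vehicle. For BDL_GW4064 against Sham_Vehicle it was 0 to 1 when single arrays were left out, the 1 being Il18 without BDL_GW4064 replicate 1, and 0 under the other alternatives. The count over all probe sets was 7, with a range of 2 to 48, for the first comparison, 4 (1 to 6) for the second and 5 (0 to 29) for the third, and both upper limits of 48 and 29 came from leaving out BDL_GW4064 replicate 1. Leaving out BDL_GW4064 replicate 1 rests that group on replicate 2, the array with the high smooth muscle signal. Il18 had higher values under all 17 alternatives listed for each comparison (log2 fold change 0.79 to 1.45, 0.27 to 0.56 and 1.20 to 1.86). Naip5 had lower values under all 17 (-0.60 to -0.43, -0.59 to -0.40 and -1.10 to -0.92). Filters, variance settings and the replicate block do not change a difference between group means. Leaving out a single array cannot turn the sign where groups do not overlap, as for Il18 and Naip5. The shared sign was therefore largely fixed in advance. Of 27 pairs of a probe set and a comparison, 12 changed sign under some alternative, among them Casp1, Casp4 and Il18bp, and the cause was not tested. With the replicate number as a block, 0 members passed in any comparison. The labels do not say that a number marks an animal or batch, and same-numbered arrays deviated together with correlations of -0.12 (BDL_GW4064 and BDL_Vehicle), 0.04 (BDL_Vehicle and Sham_Vehicle) and 0.09 (BDL_GW4064 and Sham_Vehicle). A block with the BDL_GW4064 numbers crossed, chosen after seeing the data and run for BDL_GW4064 against BDL_Vehicle alone, gave 0 member calls and 7 calls in all. At signals near 37.1, as for Il18bp, Il18r1, Il1b, Il1f6, Casp12, Gbp2, Pcolce and Hspg2, dimness limits what a difference can show.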
